A study of Mus musculus with 4 samples.

Results

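The genes described are the CTCF gene and 9 genes of cohesin, the protein ring that works with CTCF in folding chromosomes. They were taken by name (Ctcf, Smc1a, Smc3, Rad21, Stag1, Stag2, Nipbl, Wapl, Pds5a and Pds5b), 10 of 21779 protein-coding genes, and each was given the called peaks that overlap its annotated span or the 1 kb on either side of it (GRCm38). The peaks come from CUT&Tag, in which an antibody directs a transposase to cut and tag the DNA nearby, on primary haematopoietic stem cells of bone marrow from mice wild type for Ppp2ca. An antibody to PPP2CA, the catalytic subunit of the phosphatase PP2A, was used for 2 libraries (PPP2CA 1 and 2), and control immunoglobulin (IgG) for the other 2. All 4 share cell type, genotype and kit. Strain, age, the number of animals and any pooling are not given in the sources used here, and the specificity of the antibody was not tested.

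CTCF is a zinc finger protein that binds insulators and marks the ends of chromatin loops. Cohesin is built from SMC1A, SMC3 and RAD21, which close the ring, and STAG1 or STAG2, which sits on it. NIPBL loads the ring and drives loop formation, PDS5A and PDS5B bind it and regulate its time on DNA, and WAPL releases it. Cohesin genes, STAG2 above all, are recurrently mutated in human myeloid leukaemia, and in mouse blood stem cells cohesin is known to balance self-renewal against differentiation.

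Every one of the 10 genes carried a place marked in both PPP2CA libraries, and none carried an IgG peak. Such a place, called a region here, is made of peaks of PPP2CA 1 and PPP2CA 2 that share at least 1 bp. IgG peaks were rare at any gene, with 2.08% of all protein-coding genes holding one. A region was present at 10 of 10 members, against 45.9% of all protein-coding genes and 55.7% of the 7332 protein-coding genes at least as long as the shortest member (30.9 kb). For Smc1a and Stag2, which lie on the X chromosome, the background is lower: 26.4% of 963 X-linked genes had a region. Counting any peak of a single library, all 10 members had one in PPP2CA 1 and all 10 in PPP2CA 2, against 51.5% and 52.4% of protein-coding genes. For the members this follows from the regions, each of which holds peaks of both libraries. Each member had exactly 1 region, as did 76.1% of the 4082 genes of at least that length with any. These counts describe the members and carry no test.

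The promoters of all 7 members with an entry in the table are shown, because their annotated start lay inside the region of both libraries at each. They are RefSeq sequences of GRCm38.p6, 5′ to 3′ on the strand of the gene, from 250 bases before the start to 50 from it, in the order printed at chr8:105636288-105636587, chr19:53600146-53600445, chr9:100643198-100643497, chrX:152016178-152016477, chr5:65698187-65698486, chr5:150673577-150673876 and chr14:34673678-34673977, on the plus strand except Pds5a on the minus strand. Capitals mark every GC box (GGGCGG, bound by SP factors) and the letters AAGATGGCG, the YY1 motif, or its close variant AAAATGGCG, on either strand.
Ctcf: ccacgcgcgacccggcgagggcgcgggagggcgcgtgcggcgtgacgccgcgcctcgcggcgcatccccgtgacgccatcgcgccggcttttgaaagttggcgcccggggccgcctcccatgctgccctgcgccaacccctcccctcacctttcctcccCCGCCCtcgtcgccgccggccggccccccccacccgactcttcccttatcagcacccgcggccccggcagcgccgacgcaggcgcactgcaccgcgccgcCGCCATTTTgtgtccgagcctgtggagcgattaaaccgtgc
Smc3: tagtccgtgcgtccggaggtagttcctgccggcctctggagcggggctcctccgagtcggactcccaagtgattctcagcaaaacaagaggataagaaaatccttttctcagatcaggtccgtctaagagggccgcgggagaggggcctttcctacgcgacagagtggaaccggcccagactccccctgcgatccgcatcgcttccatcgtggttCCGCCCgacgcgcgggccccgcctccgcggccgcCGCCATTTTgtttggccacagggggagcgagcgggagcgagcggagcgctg
Stag1: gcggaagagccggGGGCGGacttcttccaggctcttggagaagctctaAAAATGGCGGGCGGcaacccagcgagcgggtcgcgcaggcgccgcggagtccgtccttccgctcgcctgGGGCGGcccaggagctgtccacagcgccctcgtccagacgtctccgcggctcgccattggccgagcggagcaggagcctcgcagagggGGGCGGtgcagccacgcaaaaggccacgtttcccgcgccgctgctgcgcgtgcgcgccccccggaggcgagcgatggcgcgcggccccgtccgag
Smc1a: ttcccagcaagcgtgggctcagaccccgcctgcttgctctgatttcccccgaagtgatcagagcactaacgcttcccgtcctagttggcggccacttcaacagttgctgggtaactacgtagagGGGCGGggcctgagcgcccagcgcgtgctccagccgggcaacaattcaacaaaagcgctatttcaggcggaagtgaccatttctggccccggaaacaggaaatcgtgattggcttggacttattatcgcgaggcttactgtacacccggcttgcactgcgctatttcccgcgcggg
Pds5a: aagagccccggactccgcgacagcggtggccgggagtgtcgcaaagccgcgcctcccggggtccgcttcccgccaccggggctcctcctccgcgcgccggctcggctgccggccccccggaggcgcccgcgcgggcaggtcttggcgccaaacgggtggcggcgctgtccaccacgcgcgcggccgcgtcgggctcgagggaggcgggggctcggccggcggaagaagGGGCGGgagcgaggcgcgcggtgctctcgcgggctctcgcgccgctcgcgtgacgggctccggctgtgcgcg
Pds5b: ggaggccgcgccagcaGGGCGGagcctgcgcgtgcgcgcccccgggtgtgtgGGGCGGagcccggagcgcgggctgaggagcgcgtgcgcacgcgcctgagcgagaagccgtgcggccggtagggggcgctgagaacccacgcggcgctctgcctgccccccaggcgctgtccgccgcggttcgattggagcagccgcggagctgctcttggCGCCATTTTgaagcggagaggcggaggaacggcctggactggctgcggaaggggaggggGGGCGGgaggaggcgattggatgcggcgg
Wapl: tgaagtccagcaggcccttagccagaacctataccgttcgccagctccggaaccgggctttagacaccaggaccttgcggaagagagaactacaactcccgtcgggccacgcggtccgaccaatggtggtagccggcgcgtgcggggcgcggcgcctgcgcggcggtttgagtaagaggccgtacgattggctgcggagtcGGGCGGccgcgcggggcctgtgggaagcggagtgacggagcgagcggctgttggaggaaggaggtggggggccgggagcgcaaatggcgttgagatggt

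All 7 member promoters held a GC box, against 35.7% of 32851 promoters and 72.8% of the 8028 promoters of protein-coding genes whose start lay in a region. The letters AAAATGGCG, searched after the sequences had been seen, were in 4 of the 7 (Ctcf, Smc3, Stag1 and Pds5b), against 0.472% of all promoters and 1.30% of those in a region. AAGATGGCG was in none of the 7 (1.40% of all promoters and 3.87% of those in a region). In Stag1 the letters share their last base with a GC box. In Smc3 the letters lay across the start, and in Ctcf just downstream, from base 10 counted from the start. The 2 promoters share there the 16-base run GCCGCCGCCATTTTGT. The ETS core CCGGAA was in Smc1a and Wapl (14.9% of all promoters and 33.5% of those in a region), the NF-Y box CCAAT in Smc1a, Stag1, Wapl and Pds5b (37.4% and 39.6%), and the CRE letters TGACG in Ctcf, Wapl and Pds5a (20.8% and 37.9%). The CTCF core motif was in none of them, that of Ctcf included (0.846% of all promoters and 1.73% of those in a region), nor was a TATA box TATAAA (13.6% and 5.28%), an E box CACGTG (7.15% and 11.2%), the NRF1 motif (0.971% and 2.65%) or the ZNF143 motif (0.286% and 0.710%). A variant of the ZNF143 motif with 1 base changed, also searched after the sequences had been seen, was in Wapl alone (0.423% and 1.22%). CCCTC, a part of the CTCF core, was in all of the 7 but Wapl (66.0% and 77.3%). A match describes letters and is not evidence of binding, and both strands were searched. The member promoters were rich in G and C, with a median of 73.7% and a range from 58.3% in Smc1a to 80.3% in Pds5a, against 52.7% over all promoters and 63.0% over those in a region. Their median ratio of observed to expected CpG was 1.06, against 0.384 and 0.824. The part of base composition in the presence of a region was not tested.

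The PPP2CA libraries held 16811 and 17686 peaks, and the IgG libraries 561 and 310. The number of fragments over a summit was recovered from the deposited values, and its median was 18 for PPP2CA 1 and 2 and 4 for IgG 1 and 2. The background of the PPP2CA libraries was 9.34 to 9.61 times that of the IgG libraries, so that the 2 kinds of library differ in depth. At 6930 summits shared by the PPP2CA libraries, fragment counts varied between them by less than the sampling noise (dispersion 0.783), so they are treated as 1 sample. Only summits called in both libraries within 100 bp of each other entered this value. Places called in a single library did not, and 58.0% of 21771 merged regions held peaks of both. Values are given for each library with no SD, and means of the 2 serve only for the order of the genes and the medians over alternatives. Nothing in the labels ties them to separate animals, and with 2 libraries a group no exact permutation test can give a two-sided p below 1 in 3. Of the marker genes of stem and progenitor cells, 5 of 12 had a region (Tal1, Kit, Runx1, Mecom and Meis1), as did 0 of 5 lymphoid, 1 of 5 myeloid, 2 of 5 erythroid and 1 of 5 stromal and endothelial markers. Cd34, Slamf1, Procr, Hlf, Gata2 and Ly6a were among those with none. The share of all protein-coding genes with a region was 45.9%, close to that of the stem and progenitor markers. An IgG peak was found at 1 of the 12 stem and progenitor markers and at none of the other markers. Of all protein-coding genes, 2.08% had an IgG peak. A region does not measure expression, so these counts neither bear out nor contradict the labelled cell type.

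Ctcf had the highest summit of the 10 genes. The gene (NCBI gene 13018) lies on chromosome 8 at 105636474 to 105682922, and its region at 105635953 to 105637127, across the low-coordinate end. The summit held 180 fragments in PPP2CA 1 (95% exact Poisson interval 154.7 to 208.3) and 202 in PPP2CA 2 (175.1 to 231.9). It lay at -1 base from the annotated start in PPP2CA 1 and at 44 bases past it in PPP2CA 2. Its fold over the local background, the authors' own value for each peak, was 11.9 in both libraries, and it ranked 220 of 16811 and 203 of 17686 by −log10 q, within the best 1.31% and 1.15% of the lists. The local background there was 14.2 and 16.0 fragments, far above the lowest of the libraries (0.784 and 0.80), so that the fold understates the height against the rest of the genome. The lncRNA gene Gm5914, on the opposite strand, overlaps the same region. Ranked by the worse of their ranks in the 2 libraries, Tada3 lay above Ctcf (218 against 220), and Btg1 was tied with Ctcf (220). Klf6 and Midn came next below (221 and 222).

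Among the ring genes, Smc3 was high, Smc1a intermediate and Rad21 the lowest of all 10. Smc3 encodes the subunit whose acetylation locks cohesin on DNA. Its gene lies on chromosome 19 at 53600396 to 53645831, with the region at 53599756 to 53600896, and the peaks of the 2 libraries had identical ends. The summits held 154 and 151 fragments in PPP2CA 1 and 2, at -248 and -253 bases from the start, with the highest fold of the 10 genes (14.6 and 13.5). Smc3 thus had fewer fragments than Ctcf but a higher fold, over a local background of 9.61 and 10.3 fragments against 14.2 and 16.0 at Ctcf.

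Smc1a encodes the partner that pairs with SMC3 at the hinge of the ring. It lies on the X chromosome at 152016428 to 152061973, and its region at 152015903 to 152017067 also covers the start of Ribc1, a gene on the opposite strand that overlaps its first bases. Smc1a and Ribc1 cannot be told apart as the owner of this signal. The summits held 60 and 64 fragments, 286 and 155 bases after the start of Smc1a, with a fold of 11.1 and 9.99.

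Rad21 encodes the kleisin that closes the ring and is cut by separase when chromatids part. Its gene lies on chromosome 15 at 51962604 to 51993538, and its region at 51990800 to 51991971 ends 1.57 kb inside the high-coordinate end, where the gene model Gm52217 overlaps it. The summits held 21 and 25 fragments with a fold of 6.59 and 6.87, at ranks 6631 and 5959. Both values lay below the median of 29 and 32 fragments for the best region of the 10003 protein-coding genes with one.

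**Figure D1:**
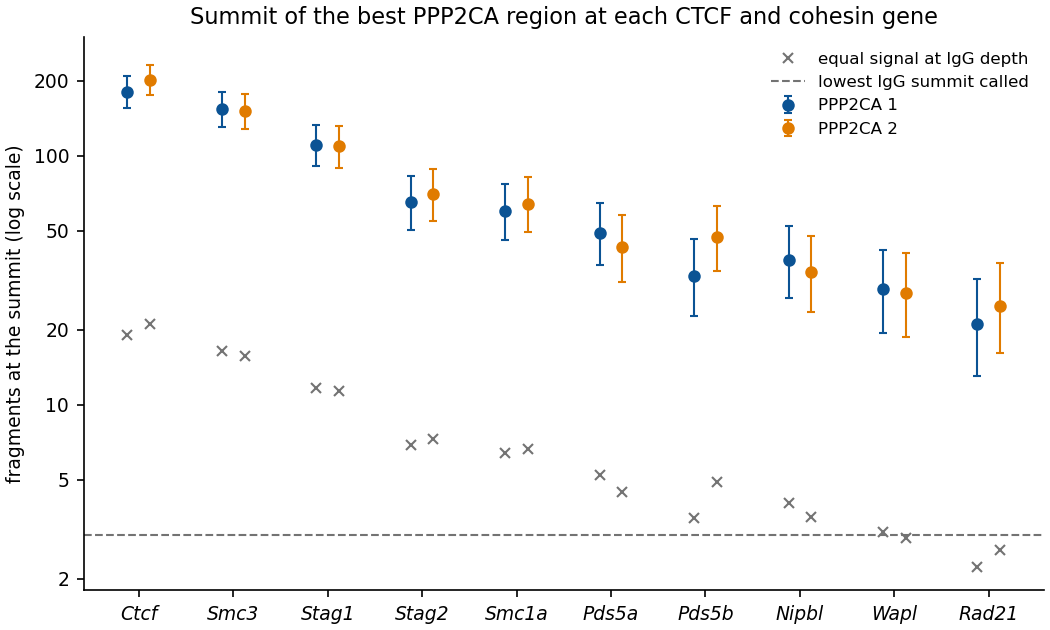
Fragments at the summit of the best region (log axis) for the 10 genes in PPP2CA 1 and PPP2CA 2, with bars for the 95% exact Poisson interval of each count. Crosses give the fragments that an equal signal would leave at IgG depth, and the dashed line the lowest IgG summit called, 3 fragments. Ctcf leads with 180 and 202 fragments and Rad21 is last with 21 and 25.

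The 2 STAG genes, which encode alternative subunits that cohesin carries one at a time, differed in height. Stag1 lies on chromosome 9 at 100597709 to 100958544 and is the longest of the 10 genes (361 kb). Its region at 100642779 to 100644350 was 45.1 kb inside the low-coordinate end, at the start given in the promoter table, with summits at -63 and -66 bases from it. They held 110 and 109 fragments (fold 10.2 and 8.77). Stag2 lies on the X chromosome at 42149297 to 42277186, with its region at 42149757 to 42150741, 0.460 kb inside the gene. Its summits fell on the same base in both libraries and held 65 and 70 fragments (fold 7.43 and 6.53). A further peak of PPP2CA 1 just outside the gene, at 42148815 to 42149143, held 28 fragments and had no partner in PPP2CA 2. The counting intervals of Stag1 (90.4 to 132.6 and 89.5 to 131.5) did not overlap those of Stag2 (50.2 to 82.9 and 54.6 to 88.4) in either library. Stag2 is X-linked and Stag1 is not, and the sources used here do not state the sex of the mice.

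Nipbl had the widest region and the lowest fold of the 10 genes. Its gene lies on chromosome 15 at 8289824 to 8465315, and the region at 8443411 to 8446563 was 18.8 kb inside the high-coordinate end. PPP2CA 1 had there 1 peak of 3153 bp, and PPP2CA 2 had 2 peaks of 1117 and 1119 bp with a gap between them. The region was wider than 99.9% of the 12631 regions marked in both libraries. The summits nearest each other held 38 and 34 fragments (fold 5.35 and 4.04), and the second PPP2CA 2 peak held 32. The rank was 5074 in PPP2CA 1 and 7842 in PPP2CA 2. The protein-coding gene model LOC102634078 overlaps this region too.

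The genes of the release and regulation factors were in the lower part of the order. Pds5a lies on chromosome 5 at 65605719 to 65698236, on the minus strand, and its region at 65696923 to 65698683 covers the start. The summits held 49 and 43 fragments (fold 8.07 and 6.30), 84 and 81 bases after the start, and the peak reached farther into the gene in PPP2CA 2 (1743 bp wide, against 1049 bp). Pds5b lies on the same chromosome at 150673713 to 150810669, with its region at 150673382 to 150674567, which the protein-coding gene model Gm40353 also overlaps. It held 33 fragments in PPP2CA 1 and 47 in PPP2CA 2 (fold 8.68 and 10.2), so that Pds5a was the higher of the pair in PPP2CA 1 and Pds5b in PPP2CA 2. Wapl lies on chromosome 14 at 34672379 to 34747983, and its region at 34673431 to 34674448, shared with the opposite lncRNA gene 5830448L01Rik, held 29 and 28 fragments (fold 6.75 and 6.19). The summits were 56 and 68 bases after the start.

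By fragments the order was Ctcf, Smc3, Stag1, Stag2, Smc1a, Pds5a, Pds5b, Nipbl, Wapl and Rad21. The values of the 2 libraries overlapped between neighbours only for Pds5a with Pds5b and Pds5b with Nipbl. The counting intervals, which are the wider measure, overlapped in both libraries between all neighbours except Stag1 and Stag2. The step from Stag1 to Stag2 is therefore the only step between neighbours at which neither measure overlapped. Overlap of intervals is not a test of a difference, and the steps between neighbours were not tested. Over the 10 genes the median summit held 54.5 and 55.5 fragments in PPP2CA 1 and 2, against 29 and 32 for all protein-coding genes with a region and 26 and 29 for those at least as long as the shortest member, and 8 of the 10 lay above the median of all genes with a region in each library. The median fold was 8.38 and 7.82 against 7.07 and 7.02. By the worse rank, Ctcf, Smc3 and Stag1 were in the best 10% of genes with a region (within 2.03%, 2.69% and 8.84%), and Wapl, Rad21 and Nipbl were in the lower part (at 53.5%, 58.1% and 66.2%).

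**Figure D2:**
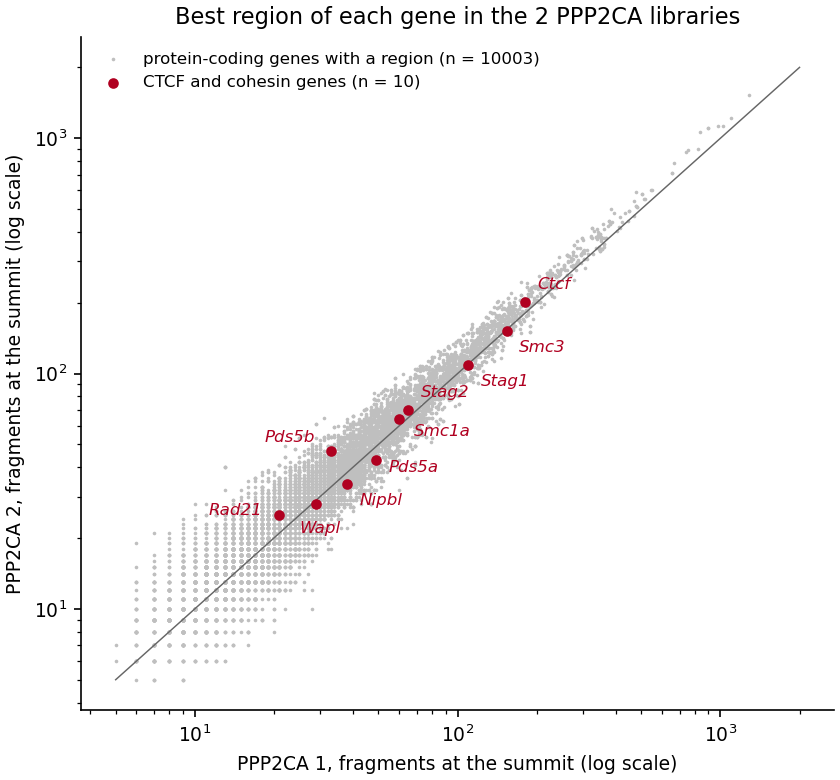
Fragments at the summit of the best region in PPP2CA 1 (x, log axis) and PPP2CA 2 (y, log axis), for all 10003 protein-coding genes with a region (grey) and the 10 CTCF and cohesin genes (red). The line marks equal counts. The members lie along it, from Rad21 at 21 and 25 to Ctcf at 180 and 202.

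The 2 PPP2CA libraries did not differ at these genes by more than counting noise. For the 7 members whose summits lay within 100 bp of each other the exact binomial test gave an adjusted p of 1.0 each (unadjusted 0.348 at Pds5a, the lowest, to 1.0 at Stag2), two-sided and adjusted by Benjamini-Hochberg over all 6930 shared summits. Over all of these, 4 were called (0.0577%), and 160 had an unadjusted p below 0.05. The members outside this test were Smc1a, Rad21 and Pds5b, whose summits were 131, 149 and 115 bp apart. The 33 and 47 fragments of Pds5b were the largest relative gap among the 10 genes, with an unadjusted exact binomial p of 0.263. The test compares the libraries with each other and no condition.

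No IgG peak lay in or within 1 kb of any of the 10 genes. Over all protein-coding genes 2.08% had one, and 4.17% of those at least as long as Rad21, the shortest member. An equal signal with both antibodies would leave 19.1 to 21.2 fragments at Ctcf at IgG depth, 15.7 to 16.5 at Smc3, 11.3 to 11.8 at Stag1, 6.91 to 7.34 at Stag2 and 6.38 to 6.71 at Smc1a. The lowest summit called in either IgG library held 3 fragments. At Rad21 (2.23 to 2.62) and, in PPP2CA 2, at Wapl (2.91 to 2.94) such a signal would fall below that lowest call. A difference between the antibodies was thus not detectable at this depth at Rad21. At Wapl in PPP2CA 1 (3.08 to 3.10) and at Nipbl, Pds5a and Pds5b (3.51 to 5.25) the equal signal would lie only a little above that call. A call also depends on the local background, which these scaled fragments leave out. In PPP2CA 1 the local background ran from 2.98 times the lowest of the library at Rad21 to 18.1 times at Ctcf. Stag2 (10.1 times), Nipbl (8.02) and Pds5a (6.62) lay between. Whether an equal signal would be called over such a background in IgG was not tested. The missing IgG peaks alone therefore do not show a difference between the antibodies.

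Where an annotated start was given, the region covered it. The promoter table has a start for 7 members, and the best region spanned it at 7 of 7, as at 80.7% of the 8197 protein-coding genes with both a region and a start. From that start the 7 regions reached 445 to 669 bases upstream and 500 to 1313 bases downstream. The start is not always at the end of the annotated span, which takes in every gene model. Within 1 kb of a span end a region was found at 6 of the 10 members, against 40.2% of all protein-coding genes. The other 4 were Stag1, Nipbl, Rad21 and Wapl, whose regions lay 45.1 kb, 18.8 kb, 1.57 kb and 1.05 kb inside the gene. A window around span ends therefore misses the region of the third-highest member.

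**Figure D3:**
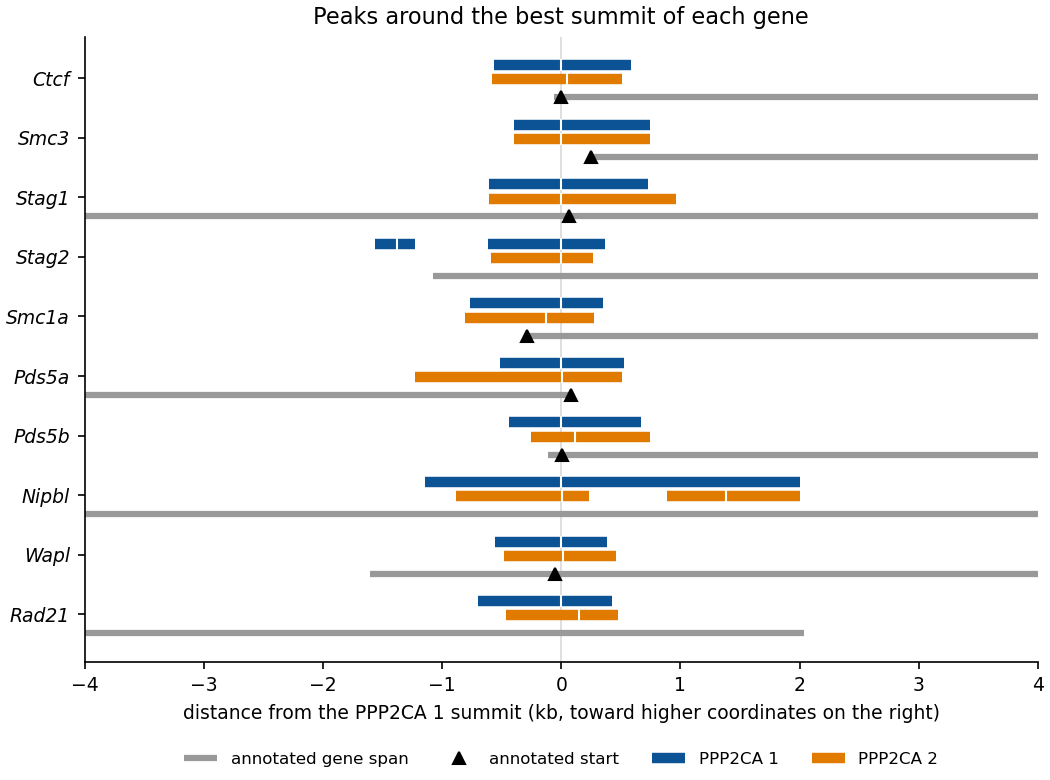
Peaks of PPP2CA 1 (blue) and PPP2CA 2 (orange) within 4 kb of the PPP2CA 1 summit of each gene, with white ticks at the summits, the annotated span in grey and the annotated start as a triangle where the table gives one. The x axis is distance in kb. All 7 starts lie under the peaks, and Nipbl has the widest peak, 3153 bp in PPP2CA 1.

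Away from these regions the genes held 7 peaks of single libraries, 6 of them with 5 to 8 fragments. PPP2CA 1 had 12 peaks at the members, of which 2 lay outside the shared regions: the 28-fragment peak at Stag2 and 1 of 7 fragments at Nipbl. PPP2CA 2 had 16, of which 5 lay outside, at Ctcf, Smc1a, Rad21, Stag1 and Pds5a, with 5 to 8 fragments each. The latter ranked 14376 to 17301 of 17686. Apart from the peak at Stag2, these summits were close to the lowest summit called in the PPP2CA libraries, 5 fragments. The peak inside Ctcf, at 105660664 to 105661336, lay in the transcribed pseudogene Gm5915.

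**Figure D4:**
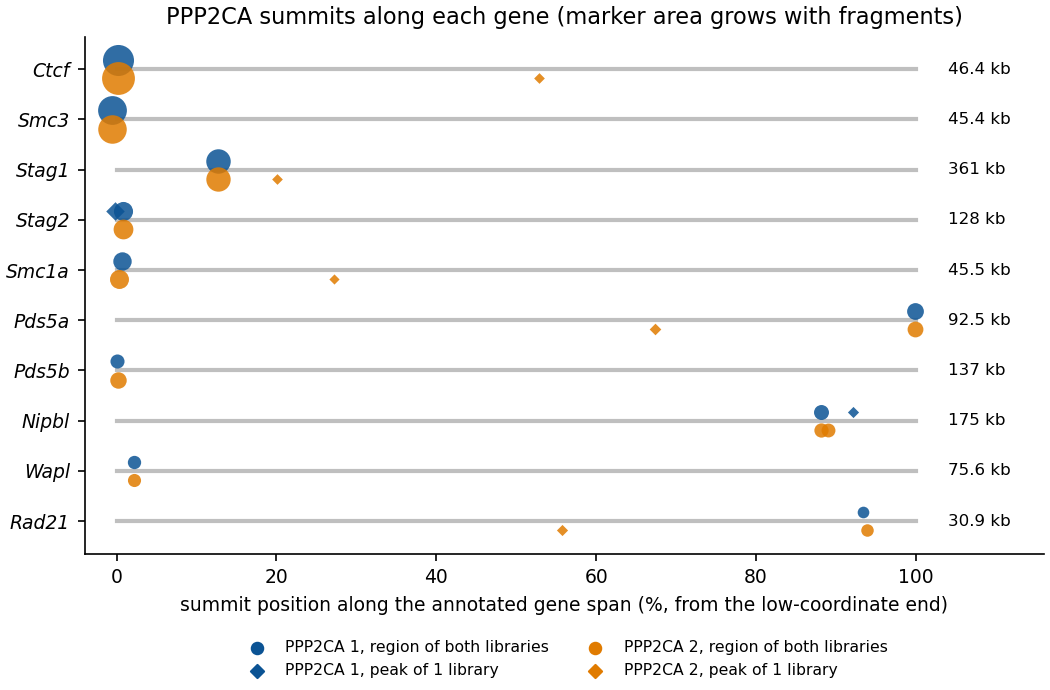
Position of every PPP2CA summit along the annotated span of each gene, in percent from the low-coordinate end, with circles for regions of both libraries and diamonds for peaks of 1 library (marker area grows with fragments, span in kb at the right). Stag1 and Nipbl have their region inside the span, and the 5 single peaks of PPP2CA 2 are small.

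Other genes of chromosome architecture were marked to different extents, against a region at 45.9% of all protein-coding genes. Condensin, the related complex that compacts mitotic chromosomes, had a region at 8 of 8 genes, and the best by rank of −log10 q, the order used for every list here, were Ncapd3 (60 and 59 fragments), Ncapd2 (53 and 65) and Smc4 (70 and 58). SMC5/6, which acts in DNA repair, had 6 of 7, the best by rank being Smc6 (35 and 34), Nsmce3 (16 and 22) and Smc5 (15 and 13), and none at Eid3. Factors that share loop anchors or promoters with CTCF had 10 of 10, the best by rank being Zfp143 (248 and 277), Yy1 (214 and 232) and Maz (152 and 163), so that Zfp143 and Yy1 were above Ctcf in fragments.

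The loading, acetylation, protection and removal genes of cohesin had 6 of 12, close to the background of 45.9%. Of these 12 genes, 1 had an IgG peak, the only gene of the 5 architecture lists with one (2.08% of all protein-coding genes). None of the 6 regions was touched by an IgG peak. Mau2, the partner of NIPBL in loading, held 80 and 93 fragments, Cdca5 (sororin, which opposes WAPL) 85 and 78, and Sgo1 (shugoshin, which protects centromeric cohesin) 48 and 78. Mau2 was thus higher than Nipbl in both libraries. No region was found at Esco2, Espl1, Pttg1, Plk1, Hdac8 and Brca2. Of the cohesin subunits of meiosis and the CTCF paralogue, which are active mainly in germ cells, 1 of 5 had a region, Stag3 (27 and 28), and Smc1b, Rec8, Rad21l and Ctcfl had none. These counts are descriptions without a test, and whether the lists differ in gene length, base composition or expression was not tested.

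**Figure D5:**
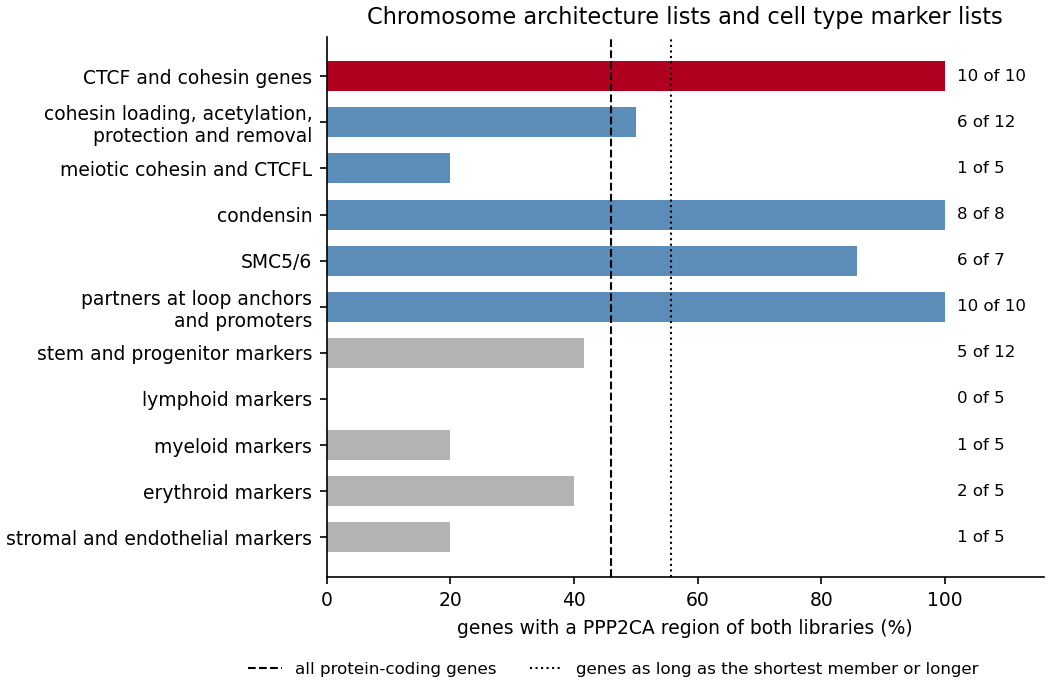
Percentage of genes with a region of both PPP2CA libraries in the CTCF and cohesin genes (red), 5 other lists of chromosome architecture genes (blue) and 5 lists of cell type markers (grey), with counts at the right. The dashed line is all protein-coding genes (45.9%) and the dotted line those at least as long as the shortest member (55.7%).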

How the data were processed

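CUT&Tag peaks of 4 libraries, 2 for PPP2CA and 2 for IgG, were analysed, grouped and numbered by their titles. Per the submitters' processing notes, GRCm38 and mm10 were the builds, and the tools were MACS2, BWA, Trimmomatic, HOMER, ChIPseeker and deepTools, with no settings. The authors deposited a narrowPeak list for each library, with a fold (ratio of summit to local background) for every peak, a −log10 p and a −log10 q, and a score that was 10 times the −log10 q for at least 99.99% of peaks. The sources used here do not say whether IgG was the control for calling.

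Fragments at a summit were recovered from the deposited fold, taken as (fragments + 1) / (background + 1), and the −log10 p, taken as a Poisson tail. Whole fragment numbers came out for 100% of peaks, with a largest relative error of 8.76e-06 in PPP2CA and 4.09e-06 in IgG lists. The next whole number missed by at least 1.37e-05, in IgG 2. The lowest local background of a list stood for its genome background. The 95% exact Poisson intervals cover only the counting error of fragments taken as independent. PCR copies are not independent molecules and would make the intervals too narrow.

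Gene spans came from RefSeq GRCm38.p6 and starts from its promoter table, in which 7 of the 10 members matched. Gene entries below 3 Mb were left out, except on the Y chromosome. The best region of a gene has the smallest worse rank by −log10 q. Libraries were compared by an exact binomial test (SciPy 1.17.1, Python 3.11.15), tested on simulated data. The members, gene lists and tests were chosen with earlier results of these data known. Named genes were all members and genes touching a member's region. From each other list the 3 best by rank and those without a region were named. Also named were 2 genes on each side of Ctcf by rank, a tie included. Alternatives were a −log10 q of at least 5, other windows and overlaps, at least 20 fragments, regions without IgG peaks, and each library left out.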

Additional observations from a re-analysis of the deposited data

How the results depend on the processing

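A region at 10 of 10 members and 7 of 7 starts spanned were also found with peaks of −log10 q of 5 or more, the gene span alone, 5 kb of flank, summits in the window, 20 or more fragments and either PPP2CA library left out, while the share of all protein-coding genes ran from 30.5% (20 fragments) to 52.4% (PPP2CA 1 left out). The 5 kb flank and leaving out a library could not take a region from a member. For the count of members with a region they say nothing of stability. No IgG peak was found with 5 kb of flank either. The other IgG alternatives, and leaving out regions touched by IgG, could not change a count for the members and say nothing of stability. Within 1 kb of gene boundaries 6 members had a region (40.2% of all genes), with a median summit of 64.8 fragments (54.0 in the main analysis, means of both libraries) and a median rank within the best 10.8% (15.0%). With a reciprocal overlap of 50% there were 9, all but Nipbl (42.9% of all genes), with 62.0 fragments and 12.6%. These medians cover fewer genes. With either PPP2CA library left out the median summit was 54.5 to 55.5 fragments and the median rank 13.3% to 13.8%. Under every alternative that kept a member's region and both libraries, its own summit had the same value as in the main analysis. As each member had exactly 1 region, stricter settings had no other region to choose. Leaving out a library cannot shift the mean by more than the spread between libraries. The steadiness of these summit values therefore says nothing of stability. No member differed between libraries when scaled by the lowest background (3 summits called, 249 at an unadjusted p below 0.05, against 4 and 160), or with summits paired within 50 or 200 bp (4 called in each). The start was spanned at 5 members under the boundary window, and the wider lists had 22 to 34 genes with a region (31 in the main analysis). Alternatives on PPP2CA regions alone gave no value for IgG peaks. By scaled fragments alone, the shallow IgG libraries limit the comparison with the control at Rad21 and Wapl most. That order takes no account of the local background. No paired analysis was possible because each library has its own peak list and no test compares the 2 groups.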

Other observations

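The member promoters share longer runs of letters in some pairs, which were looked for after the sequences had been seen. Stag1 and Pds5b share CTGCGCGTGCGCGCCCCC (18 bases, in 4 of 32851 promoters) and Ctcf and Smc3 share the 16-base run GCCGCCGCCATTTTGT (in 3 promoters). No test of these runs was made.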
